A study of Mus musculus with 148 samples.

Results

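Conventional type 2 dendritic cells (cDC2) were taken as the wells whose deposited annotation began with DC_ and contained cDC2. There were 499 such cells among 24020 annotated wells, which was 2.13% of the 23425 immune cells and 52.9% of the 943 dendritic cells (DC). The remaining DC were 254 cDC1, 117 migratory DC (migDC) and 73 plasmacytoid DC (pDC). UMI counts (molecules counted by their unique identifier) were summed over the cDC2 of each mouse and tissue status where at least 5 cells were present, which gave 36 sums from 448 cells. A further 22 of the 63 samples held 1 to 4 cDC2 and 5 held none, and these entered the frequencies only. No well identifier was shared between plates.

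All mice were female C57/b6 mice, 8 weeks old at injection, that carried photoactivatable GFP (PA-GFP), a reporter that is switched on by light so that cells of a chosen region can be sorted. Except in the control mice, EO771-tdTomato, a mouse breast cancer line with a red label, was injected into a mammary gland, and the resulting tumor was removed after 3 weeks. Control lung (3 mice, 18 cDC2, 3 sums) was labelled Normal, Pre-MET lung (3 mice, 18 cDC2, 3 sums) from tumor-bearing mice before resection, and primary tumor (4 mice, 93 cDC2, 4 sums) from the gland itself. Relapse-free lung (6 mice, 63 cDC2, 5 sums) was taken after resection from mice in which no metastases appeared. In mice with metastases, lung tissue with a lesion (metastasis, 13 mice, 112 cDC2, 9 sums) and tissue without red cells (distal normal tissue, 14 mice, 44 cDC2, 4 sums) were separated. The photoactivated metastasis core (13 mice, 137 cDC2, 7 sums) and invasive margin (7 mice, 14 cDC2, 1 sum) were sorted as CD31-GFP+ cells. In the core of mouse 17 the gate also asked for CD45. Other tissue was mostly sorted as CD31-CD45+ cells. The plates of relapse-free mice 6 and 7 came from several gates. These were CD31- photoactivated cells, CD31-CD45+ cells that were not photoactivated, and CD31-CD45+ cells. The sums of these mice held 8 and 24 of the 59 cDC2 in the relapse-free sums. One tumor line stood for breast cancer throughout, and the metastasis core of mouse 28 alone gave 66 of the 137 core cells.

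As background, cDC2 are the dendritic cells that take up antigen in lung and other tissues and present it on MHC class II to CD4 T cells. They are told from cDC1, which present to CD8 T cells, by C-type lectins such as Cd209a and by the lack of Xcr1. Type I interferon is sensed by nearly every cell and switches on a shared set of genes, among them antiviral proteins (Isg15, the Ifit and Ifitm families), a T cell attracting chemokine (Cxcl10) and the surface protein Ly6a (Sca-1).

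Depth per cDC2 was 1584 UMIs and 675 genes in the median, and 351 cells (70.3%) reached 1000 UMIs. The sums held 3547 to 234671 UMIs. Primary tumor sums were the deepest (104613 to 234671 UMIs, against 8352 to 9829 in Pre-MET lung), so a level of 0 in Pre-MET lung is less precise than one in the primary tumor. One marker moved with the sequencing batch in the 3 cell types examined for it. Cd74, the invariant chain of MHC class II, was at 1121 to 2515 CPM (UMIs of a gene scaled to the UMIs of all genes) in the B cells of 7 batches and at 9678 to 40757 CPM in those of 4 others, where at least 10 B cells were present. An eighth batch, with 2 B cells, was counted with the lower ones. The same split was seen in cDC2 (851 to 4589 CPM in the 8 lower batches, 13060 to 34845 CPM in the 4 higher ones) and in cDC1 (1733 to 5903 and 14803 to 46626 CPM). All 4 primary tumor sums, 5 of 9 metastasis sums and 1 sum each of relapse-free lung, distal normal tissue and metastasis core came from the 4 higher batches, and no control, Pre-MET or margin sum did. Batch and status cannot be told apart where primary tumor is compared with Pre-MET lung or Pre-MET lung with control lung, which share no batch. Metastasis and relapse-free lung shared 1 batch, through 3 metastasis sums and the 5 cells of relapse-free mouse 35, so there batch and status can hardly be told apart either. The same holds for primary tumor and metastasis core, which shared 1 batch through 1 sum each. Metastasis and distal normal tissue shared 2 batches, with cells of 7 and 3 sums. All control plates, and no others, were in 1 batch.

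Marker levels were described over the 27 annotated immune subpopulations. The authors annotated clusters of these same counts by marker genes, with Cd209a for cDC2. The level of Cd209a is thus a description and no independent check of the label. Cd209a was highest in cDC2 (958 CPM, with a UMI in 159 of 499 cells, 31.9%), against 12.2% of cDC1, whose median depth of 1534 UMIs was close to the 1584 of cDC2, and 0.190% of B cells at a median of 1001 UMIs. H2-Ab1, an MHC class II chain, had a UMI in 90.2% of cDC2 and in every cDC1, at nearly the same level (26298 and 26383 CPM). Cd74, pooled over all batches, was also highest in cDC2 (11975 CPM), but within batches cDC1 had more of it than cDC2 in all but 2 of the 12. Ffar2, a receptor for short chain fatty acids, was highest in cDC2 too (11.0% of cells, against 0.394% of cDC1). On the list of 11 further cDC2 markers, the level in cDC2 ranked 1 (Ffar2), 2 (Mgl2, Clec10a and Itgax), 3 (Zbtb46 and Epcam), 4 (Flt3), 7 (Irf4), 12 (Sirpa and Cd1d1) and 14 (Itgam) of 27. Marker lists of other cells were mixed in cDC2. The cDC1 receptor Xcr1 had a UMI in 1.00% of cells but Naaa in 95 of the 499 cells and Irf8 in 13.2%, the migDC receptor Ccr7 in 3.21% but Tmem123 in 20.8%, and the pDC lectin Siglech in 1.20% but Bst2 in 34.3%. Of macrophage genes, C1qa was found in 2.81%, Fcgr1 in 18.6% and Cd68 in 34.7% of cDC2, and of monocyte genes Plac8 in 65.9% and Ms4a4c in 49.5%. The monocyte marker Ly6c2 was found in 22.2% of cDC2, against 42.4% of MHC-II monocytes and 8.66% of cDC1. Every cDC2 sum held H2-Ab1 UMIs, but Cd209a was at 0 in 6 of the 36 sums, 1 of distal normal tissue, 3 of metastasis and 2 of core.

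**Figure D1:**
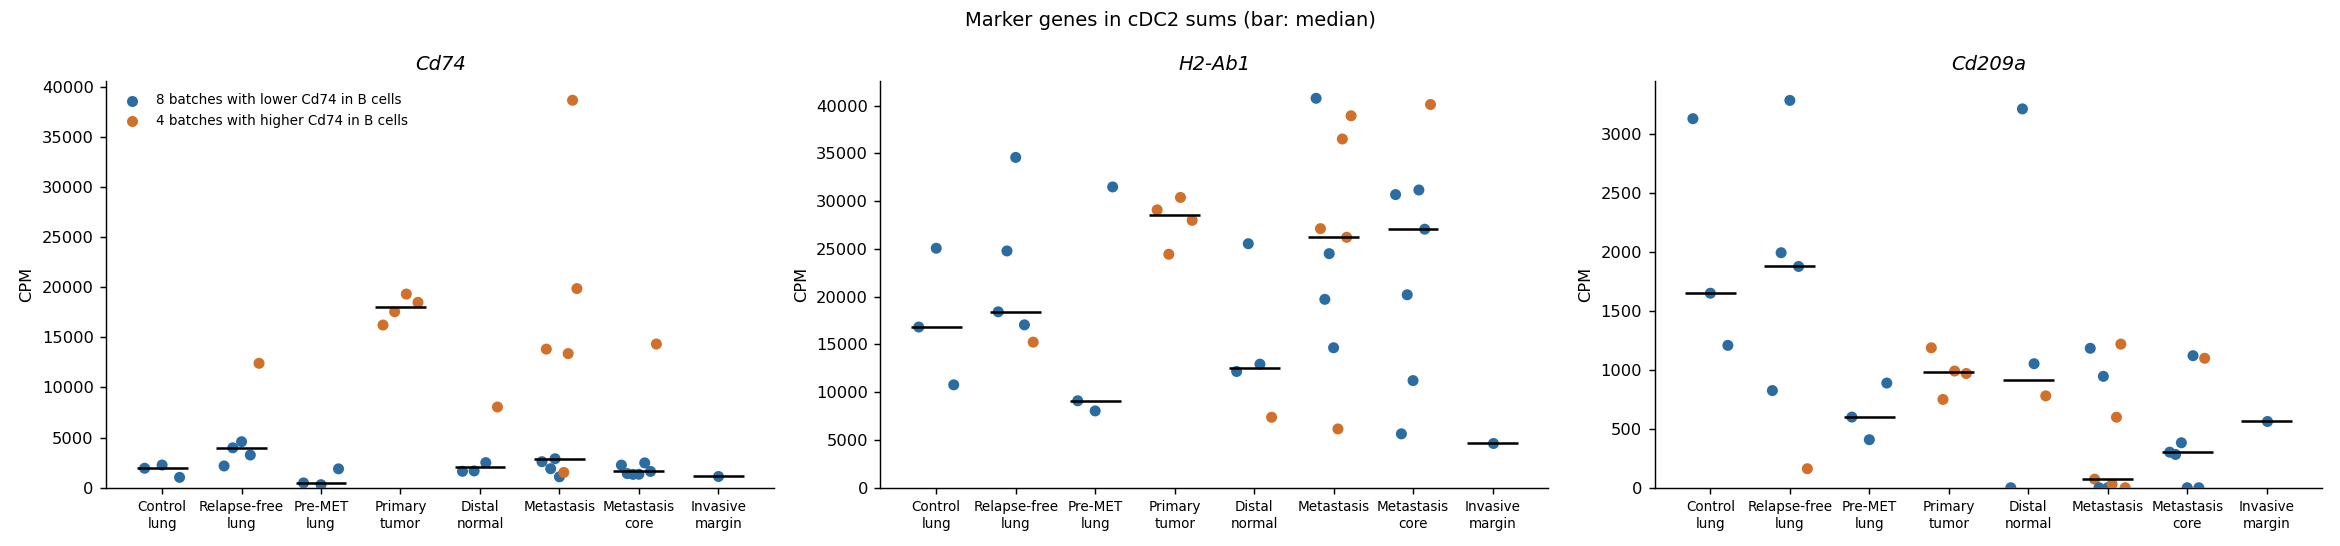
Levels of Cd74, H2-Ab1 and Cd209a (CPM, linear axes from 0) in each cDC2 sum by tissue status. Each point is 1 mouse and status, the bar is the median, and orange points are sums from the 4 sequencing batches with higher Cd74 in B cells. For Cd74, 11 of the 12 orange points lie at 8053 CPM or above and all 24 blue points at or below 4589 CPM, while the colors overlap for H2-Ab1 and Cd209a.

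The metastasis was first compared with relapse-free lung, which asks how cDC2 of lungs with a lesion differ from those of lungs that stayed free of one after the same surgery. Of 1523 genes tested (edgeR's quasi-likelihood test, Benjamini-Hochberg adjusted p below 0.05), 24 were called (1.58%), of which 16 were higher (1.05%) and 8 lower (0.525%) in metastasis. On the list of 36 type I interferon response genes, 23 were tested, 8 rose (Ifitm1, Ly6a, Cxcl10, Isg15, Isg20, Ifitm2, Rtp4 and Ifit3) and none fell. The fitted log2 fold change was above 0 for 22 of the 23, with a median of 1.81, while the median over all genes tested was 0.07. To be tested, a gene needed enough counts in only 1 sum of any status. Members near 0 in relapse-free lung could thus enter through sums where they were high. The count above 0 and the list median therefore describe the members and are no test of the list. Of the 24 calls, 4 were also made within the 8 lower batches (Ly6a, Ifitm1, Isg20 and Cstb), and 1 with the sequencing batch as a covariate (Ifitm1). Within the 8 lower batches the groups shared no batch, so that setting does not separate status from batch. The covariate fit does so only thinly, through the 1 shared batch and through batches that each group shared with other statuses. Of the sums wholly from the shared batch, relapse-free mouse 35 had Ly6a at 403 CPM and Ifitm1 at 0, and the metastases of mice 31 and 37 had Ly6a at 1989 and 3986 CPM and Ifitm1 at 1026 and 5232 CPM. The mitochondrial share of UMIs was 2.05% to 3.18% in the relapse-free sums, 2.21% to 2.85% in those of distal normal tissue and 1.10% to 3.16% in those of metastasis, and its part in the results was not tested. The metastasis is also set against distal normal tissue further on, and both comparisons use the same 9 metastasis sums.

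Ly6a (chr15:74994877-74998031 in the GRCm38 annotation, minus strand) was at 0, 256, 123, 521 and 403 CPM in the relapse-free lungs of mice 6, 7, 11, 18 and 35. In the 9 metastases it ranged from 510 to 3986 CPM with a median of 1927. Only the lowest metastasis, that of mouse 24, lay below the highest relapse-free lung. The fold change was 3.05 on the log2 scale (SE 0.53, edgeR adjusted p = 0.000141), and it stayed past the threshold in all 14 fits that left out 1 sum. With only the 8 lower batches it was 3.33 (edgeR adjusted p = 2.63e-05), and with the sequencing batch as a covariate it was 2.22 and no longer called (edgeR adjusted p = 0.379).

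Ifitm1 (chr7:140967221-140969825, plus strand) encodes a membrane protein that hinders virus entry. It was at 0 in the relapse-free lungs of mice 6, 7 and 35, at 345 CPM in mouse 11 and at 34.7 CPM in mouse 18. Metastases ranged from 36.4 to 5232 CPM with a median of 3878. The metastases of mice 24 and 30 were as low as relapse-free lung, and the other 7 were above every relapse-free sum. The log2 fold change was 4.89 (SE 0.80, edgeR adjusted p = 5.61e-05), and all 14 fits with 1 sum left out called it. So did the fit within the 8 lower batches (4.60, edgeR adjusted p = 1.02e-07) and the fit with batch as a covariate (9.52, edgeR adjusted p = 7.88e-05). The relapse-free sum of the batch shared with metastasis, that of mouse 35, held no UMI of Ifitm1, so the size of 9.52 is poorly bounded. Neutrophils of the metastasis held Ifitm1 at 6070 CPM, and the 7 neutrophil markers summed to 0 to 1168 CPM (median 218) in the cDC2 of metastasis and to 150 to 2221 CPM (median 1597) in those of relapse-free lung. Cxcr2, one of these markers, was at 0 in relapse-free lung and Csf3r, G0s2 and Mmp9 were at 0 in metastasis.

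Other members of the family rose as well. Ifitm7 was at 0, 39.4, 98.7, 0 and 403 CPM in the same order of relapse-free mice and at 182 to 2808 CPM (median 591) in metastasis, a log2 fold change of 3.50 (SE 0.74, edgeR adjusted p = 0.0035) that all 14 fits with 1 sum left out called. The Ifitm7 call was lost within the 8 lower batches (3.34, edgeR adjusted p = 0.088) and with the batch as a covariate (1.69, edgeR adjusted p = 0.722). Ifitm2 was present in every sum, with 486 to 1974 CPM in relapse-free lung and 1057 to 15724 CPM (median 2483) in metastasis. Both ranges overlapped. Ifitm3, a further member, was not called (log2 difference 0.79, edgeR adjusted p = 0.298). Reads that fell on more than 1 member were discarded when the authors mapped them, so each value covers only the stretches particular to that gene.

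The chemokine Cxcl10 (chr5:92346638-92348889, minus strand) was at 0 in 4 relapse-free lungs and at 34.7 CPM in that of mouse 18, which was 1 UMI. In metastasis it was at 0 in mice 24 and 32 and between 118 and 1314 CPM in the other 7 (median of all 9, 187). The log2 fold change was 5.06 (SE 1.16, edgeR adjusted p = 0.0121), which 13 of 14 fits called (not that without the relapse-free lung of mouse 7). The Cxcl10 call was lost within the 8 lower batches (4.95, edgeR adjusted p = 0.088) and with the batch as a covariate (4.09, edgeR adjusted p = 0.633). Isg15, a ubiquitin-like protein, was at 0 in 4 relapse-free lungs and at 49.3 CPM in mouse 11, and at 62.2 to 1030 CPM (median 197) in metastasis, so that the groups did not overlap. Its log2 fold change was 4.24 (SE 1.00, edgeR adjusted p = 0.0169) and was lost without the metastasis of mouse 33 or without the relapse-free lung of mouse 7. Isg20, an RNA exonuclease, had a UMI in all 9 metastases (31.1 to 1029 CPM, median 354) and in 2 of 5 relapse-free lungs, those of mice 6 (225 CPM) and 18 (34.7 CPM), and its call was lost without the metastasis of mouse 28 or the relapse-free lung of mouse 7 or 11. Ifit3 had a UMI in 8 of 9 metastases (median 187 CPM) and a single UMI in relapse-free lung. Its adjusted p of 0.0488 (edgeR) lay close to the threshold, and 4 of 14 fits with 1 sum left out called it.

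**Figure D2:**
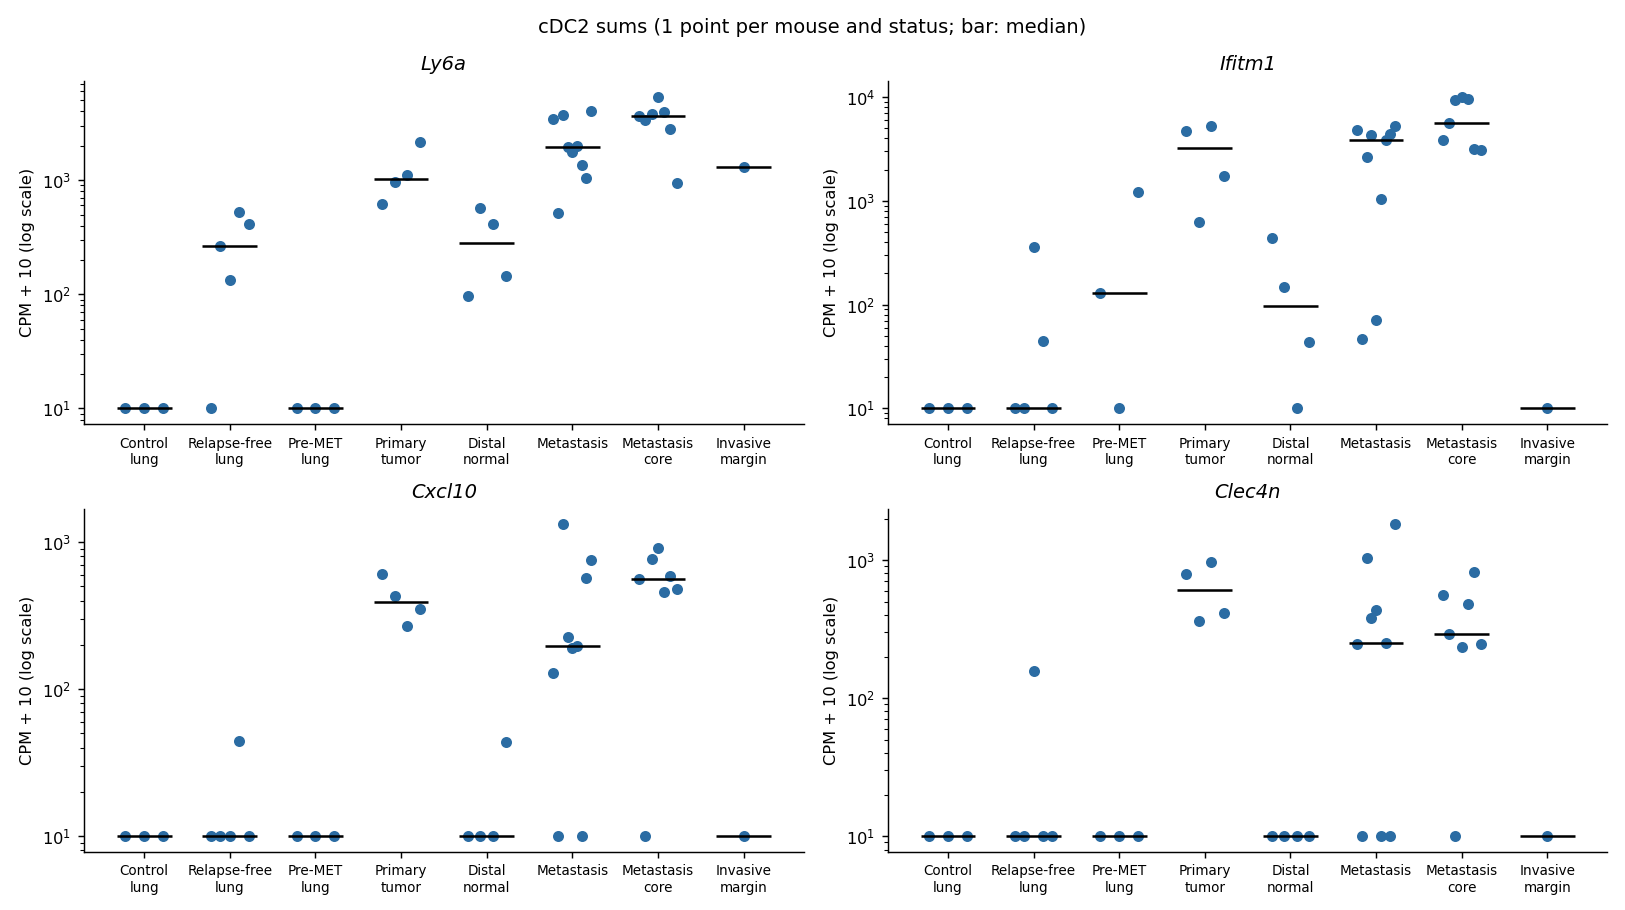
Levels of Ly6a, Ifitm1, Cxcl10 and Clec4n (CPM plus 10, log axis) in each cDC2 sum by tissue status. Each point is 1 mouse and status, the bar is the median, and points on the lowest line are sums with no UMI of the gene. Ly6a had no UMI in the 3 control and 3 Pre-MET sums, reached at most 558 CPM in relapse-free lung and distal normal tissue, and was at 940 to 5382 CPM in the metastasis core.

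The 250 bases before the start of these genes were read for the core of the interferon-stimulated response element, the DNA element bound by interferon response factors (GAAA, any 2 bases, GAAA, on either strand). RefSeq promoters were matched for 10 of the 16 genes that rose, and 4 of these 10 held the motif, against 3.46% of 27025 genes (2.98% of 32851 promoter windows of the same length). The 5 matched genes that fell held none. A second motif, TTCNNNGAA, the core of the element bound by STAT dimers, was in 3 of the 10 (Fcgr1, Il1r2 and Isg20), against 8.13% of all genes (7.02% of windows). Clec4n, Cstb, Gm7676, Ly6a, Rtp4 and Tspo were not in the promoter table. The 4 windows shown are those of the matched genes that rose and held this first motif. They are given 5′ to 3′ on the strand of the gene (GRCm38.p6, RefSeq), with the motif in capitals and 20 bases on either side. The window of Cxcl10 is chr5:92349073-92349122 (minus strand), that of Ifit3 chr19:34583353-34583436 (plus strand, motif on the opposite strand, 2 matches), that of Ifitm2 chr7:140955978-140956027 (minus strand) and that of Isg15 chr4:156200855-156200916 (minus strand, 3 overlapping matches).
Cxcl10: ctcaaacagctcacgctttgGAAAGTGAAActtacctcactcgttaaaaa
Ifit3: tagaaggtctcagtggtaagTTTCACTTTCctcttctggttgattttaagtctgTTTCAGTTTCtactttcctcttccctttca
Ifitm2: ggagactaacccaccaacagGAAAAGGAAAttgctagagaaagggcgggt
Isg15: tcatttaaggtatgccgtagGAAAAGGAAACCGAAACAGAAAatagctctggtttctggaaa
A match of letters is a description of the sequence, and binding was not measured.

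Genes outside the interferon list also rose in metastasis. Clec4n (Dectin-2), a lectin that binds fungal mannans, was at 148 CPM in the relapse-free lung of mouse 11 and at 0 in the other 4, while 6 of 9 metastases held it at 236 to 1806 CPM (log2 fold change 3.42, SE 0.96, edgeR adjusted p = 0.0488). Pkm, a glycolytic enzyme, was at 74.8 to 208 CPM in relapse-free lung and at 363 to 1778 CPM in metastasis without overlap (2.35, SE 0.66, edgeR adjusted p = 0.0488), and it was the only called gene of the 6 tested on the glycolysis list. Fcgr1, the high affinity IgG receptor, was at 59.1 CPM in the relapse-free lung of mouse 7 and at 0 in the other 4, against 0 to 591 CPM (median 334) in metastasis (3.85, SE 1.09, edgeR adjusted p = 0.0488). All 3 lay near the threshold, and 2 to 4 of 14 fits with 1 sum left out called them. Pkm was also higher in the B cells of the 4 higher batches (median 367 CPM, against 101 CPM in the lower ones). Cstb, an inhibitor of cathepsins that lies outside the naming rule here, was also among the 16, at 0 to 208 CPM in relapse-free lung and 328 to 2191 CPM in metastasis.

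Of the 8 genes that fell, Tmem176a was the one with UMIs in all 5 relapse-free lungs (74.8, 237, 814, 451 and 725 CPM) and in only 2 of 9 metastases (163 CPM in mouse 32 and 62.3 CPM in mouse 37). The Tmem176a range of relapse-free lung thus crossed that of metastasis at its low end, and the gene fell by 3.38 on the log2 scale (SE 0.89, edgeR adjusted p = 0.0339). Tmem231, Rfx2 and Zbtb43 were called on UMIs of a single relapse-free sum, that of mouse 35. Tnfrsf13b, a receptor for B cell survival factors, fell by 4.00 on the log2 scale (SE 1.09, edgeR adjusted p = 0.040). The 7 B cell markers summed to 296 to 2344 CPM in the cDC2 of relapse-free lung (median 1048) and to 0 to 2475 CPM in those of metastasis (median 236, Ms4a1 at 0), and their part in this change was not tested. Gm13341, Gm22761 and Rps27-ps1 were also lower in the B cells of the 4 higher batches, where 39 of all 1523 genes tested were lower (2.56%).

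The markers of cDC2 themselves were not called. Cd209a was at 823, 1991, 3282, 1875 and 161 CPM in relapse-free lung and at 0 to 1217 CPM (median 72.8) in metastasis, with a log2 difference of -1.95 (SE 0.61, edgeR adjusted p = 0.0951). The relapse-free lungs of mice 7, 11 and 18 were above every metastasis, and those of mice 6 and 35 lay among the metastases. H2-Ab1 was at 15233 to 34568 CPM in relapse-free lung and 6154 to 40756 CPM in metastasis (log2 difference 0.28, SE 0.38, edgeR adjusted p = 0.812). Cd74 differed by 1.19 (SE 0.57, edgeR adjusted p = 0.321) over all sums and by -0.79 within the 8 lower batches. None of the 11 tested genes (of 13 listed) of MHC class II presentation, of the 4 (of 18) of costimulation or of the 8 (of 17) dendritic cell transcription factors was called. Nor was any of the 7 (of 21) chemokines and cytokines or of the 13 (of 19) immediate early and heat shock genes. Over all 1523 genes 1.58% were called, so lists this short could hold no call without differing from the rest.

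**Figure D3:**
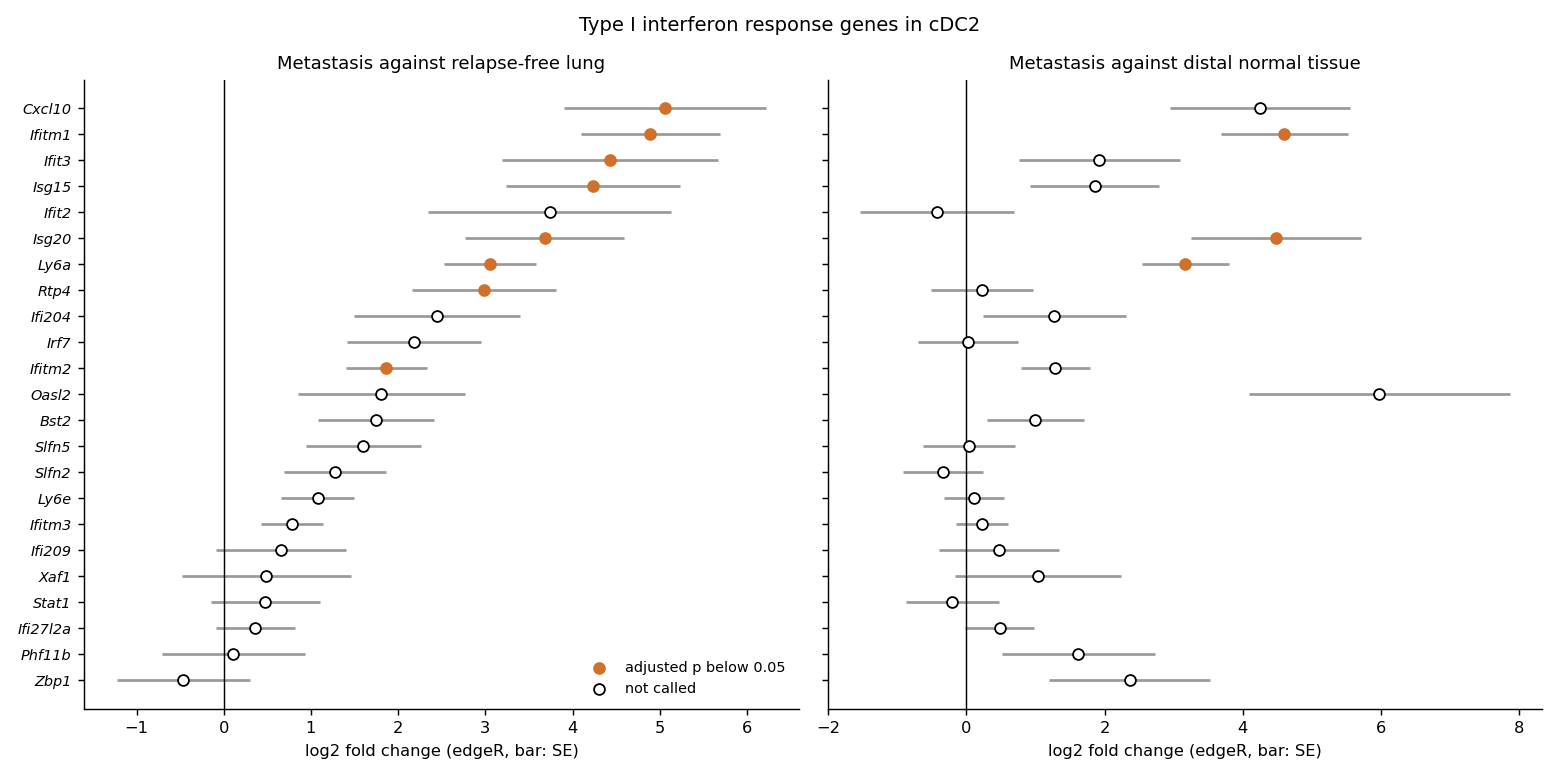
Log2 fold change of the 23 tested type I interferon response genes in cDC2, for metastasis against relapse-free lung (left) and against distal normal tissue (right). Bars are standard errors, and orange points are genes past an adjusted p of 0.05 (edgeR). On the left 22 of 23 points lie above 0 and 8 are orange, and on the right 20 lie above 0 and 3 are orange.

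The comparison with distal normal tissue asks how cDC2 of tissue with a lesion differ from those of lesion-free tissue of mice that also had metastases. Here 15 of 1523 genes were called (0.985%), 7 higher (0.460%) and 8 lower (0.525%) in metastasis, and RLE size factors, another scaling that moved the median of all genes by -0.19 on the log2 scale, gave 5 higher and 14 lower. Ly6a, Ifitm1 and Isg20 were the 3 interferon response genes among those higher, with a list median of 1.04 on the log2 scale, against 0.16 over all genes tested. Ly6a was at 86.3, 558, 404 and 135 CPM in the distal normal tissue of mice 17, 23, 27 and 36, and all but 1 of the 9 metastases were above these values (log2 fold change 3.17, SE 0.63, edgeR adjusted p = 0.00312). Ifitm1 was at 431, 140, 0 and 33.8 CPM in distal normal tissue (4.61, SE 0.93, edgeR adjusted p = 0.00312). The metastases of mice 24 and 30 again fell among the low values.

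Cstb separated the groups fully. It was at 86.3, 140, 80.8 and 67.7 CPM in distal normal tissue and at 328 to 2191 CPM (median 767) in metastasis, a log2 fold change of 3.48 (SE 0.73, edgeR adjusted p = 0.00453). Control lung (68.7 to 86.1 CPM) was as low as distal normal tissue, and the metastasis core was at 470 to 2537 CPM. Ly6a, Ifitm1 and Cstb were called in all 13 fits that left out 1 sum, within the 8 lower batches (3.13, 4.08 and 3.86) and with the batch as a covariate, but Ifitm1 was not called with only these statuses in the fit (edgeR adjusted p = 0.0833) and Cstb was not with no filter on low counts (edgeR adjusted p = 0.0521). Clec4n, Ms4a6d, Isg20 and Psme2b were called in only 4 or 5 of the 13 fits. Clec4n had no UMI in any distal normal sum and 93 UMIs in metastasis, where the level was at least 7.02-fold higher than the 3 counts over the group that a count of 0 allows. Ms4a6d, a membrane protein of myeloid cells, was at 67.7 CPM in 1 distal normal sum and had a UMI in 8 of 9 metastases (median 511 CPM, log2 fold change 4.16, SE 1.06, edgeR adjusted p = 0.0378). Psme2b, related to a proteasome activator subunit, rose by 1.97 (SE 0.54, edgeR adjusted p = 0.0495).

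Among the 8 genes lower in metastasis, Rpl37a, a ribosomal protein, fell by 2.02 (SE 0.52, edgeR adjusted p = 0.0381). Smpd2, 1700001G11Rik, Psat1 and Arfgef1 each had the UMIs of their distal normal group from 1 sum, and for Dus1l, Gsto1 and Gm26712 a single sum held at least 83.3% of them. The summed monocyte markers in cDC2 were at 3070 to 7597 CPM (median 5999) in distal normal tissue and 1217 to 6402 CPM (median 3943) in metastasis, and the macrophage markers at 259 to 566 CPM (median 431) and 498 to 2921 CPM (median 1101). C1qa, C1qb, C1qc and Mrc1 were at 0 in distal normal tissue, and no macrophage or monocyte marker of the lists was at 0 in metastasis. B cell markers summed to 0 to 1553 CPM (median 1055, Cd79a and Ms4a1 at 0) in distal normal tissue and 0 to 2475 CPM (median 236, Ms4a1 at 0) in metastasis. The cDC1 markers summed to 778 to 1778 CPM (median 1378, Xcr1 at 0) and 182 to 2511 CPM (median 622) in the same order. The part of these cells in the result was not tested.

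The photoactivated metastasis core was compared with the metastasis as a whole, which asks whether cDC2 at the centre differ from those of the lesion-bearing tissue. No gene of 1523 was called by edgeR (0%), 77 had an unadjusted p below 0.05 (5.06%) and DESeq2 called 1, H2-Oa. Ly6a was at 940 CPM in the core of mouse 36 and between 2787 and 5382 CPM in the other 6. Ifitm1 was at 3055 to 10092 CPM in the core (median 5639), with a log2 difference of 0.81 from the metastasis (SE 0.51, edgeR adjusted p = 0.963). The interferon list had a median of 0.09, against -0.20 over all genes tested. H2-Oa, which tempers peptide loading of MHC class II, was at 352, 0, 3429, 0, 314, 0 and 1410 CPM in the cores of mice 23, 24, 25, 26, 28, 30 and 36, and at 0 to 182 CPM in the metastases. Of the 7 cores 3 thus lacked it, while 2 were far above every metastasis, and the difference of 3.32 (SE 0.80) had an edgeR adjusted p of 0.139. Cd209a differed by 0.25 (SE 0.61, edgeR adjusted p = 1.00).

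The single sum of the invasive margin, from mouse 17, allowed no test. It held Ly6a at 1283 CPM and Cstb at 1283 CPM but no UMI of Ifitm1, Cxcl10, Clec4n or Isg15, with Cd209a at 561 CPM and H2-Ab1 at 4651 CPM. The neutrophil markers were highest in this sum (4170 CPM), as were those of erythroid cells (2325 CPM).

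The primary tumor was compared with Pre-MET lung, which came from 3 of the same 4 mice, to set the cDC2 of the tumor against those of the lung before any metastasis. Of 1523 genes 81 were called (5.32%), 52 higher (3.41%) and 29 lower (1.90%) in the primary tumor, and with the mouse as a block 35 were higher and 20 lower. The balance moved with the scaling. RLE size factors, which moved the median of all genes by -0.46 on the log2 scale, gave 19 higher and 37 lower, and DESeq2 gave 37 and 57. All primary tumor sums came from the higher Cd74 batches and all Pre-MET sums from the lower ones. None of the 81 calls can thus be told apart from the batches. Cd74 was at 16231 to 19321 CPM in the primary tumor and at 479, 305 and 1884 CPM in Pre-MET lung (log2 fold change 4.99, SE 0.95, edgeR adjusted p = 0.00106), which cannot be told apart from the batches. Of the 11 tested genes of MHC class II presentation 4 rose, and H2-Ab1 (1.45, edgeR adjusted p = 0.0988), H2-DMa, H2-DMb1, H2-Oa, Ciita, Ctss and Ifi30 were not called. H2-Aa was at 9856 to 12652 CPM against 2035 to 5320 CPM (2.43, SE 0.57, edgeR adjusted p = 0.0059), H2-Eb1 rose by 2.52 (SE 0.60, edgeR adjusted p = 0.00629) and H2-DMb2, part of the peptide editor H2-DM, rose by 4.46 (SE 1.24, edgeR adjusted p = 0.0218). In B cells, H2-Aa had a median of 3840 CPM in the lower and 4178 CPM in the higher batches, and H2-Eb1 one of 3016 and 3655 CPM. H2-Aa and H2-Eb1 were no longer called without the Pre-MET lung of mouse 8 or of mouse 9.

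Of the 23 interferon response genes 8 rose in the primary tumor and none fell, with a list median of 3.79 (1.91 with the 9 genes that had a group at 0 set to their bound), against 0.70 (0.12) over all genes tested. Ly6a was at 612, 948, 1099 and 2153 CPM in the tumors of mice 8, 9, 10 and 38 and had no UMI in the 3 Pre-MET lungs, so that it was at least 11.5-fold higher than a floor of 3 counts over that group. In B cells Ly6a had a median of 1428 CPM in the lower and 1039 CPM in the higher batches. The batches differ in their mix of statuses, so B cell medians do not separate batch from status. Ifitm1 was at 4694, 616, 5246 and 1708 CPM in the tumors and at 120, 0 and 1219 CPM in the Pre-MET lungs of mice 8, 9 and 10 (3.42, SE 0.97, edgeR adjusted p = 0.024). The groups overlapped, since the tumor of mouse 9 was below the Pre-MET lung of mouse 10. Isg15 and Cxcl10 had no UMI in Pre-MET lung and were at least 4.97-fold and at least 3.40-fold higher in the tumor. With RLE size factors Ly6a and Isg15 were still called (edgeR adjusted p = 0.00029 and 0.0269), and Ifitm1, Ifitm2 and Cxcl10 were not (0.0692, 0.0692 and 0.0571).

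Il1r2, the decoy receptor for interleukin-1, was at 306 to 1743 CPM in the primary tumor and at 0 in Pre-MET lung (at least 8.98-fold higher). It was at 0 in control lung as well and at 0 to 1004 CPM in the core. The transcription factors Id2 (at least 6.36-fold) and Spi1 (PU.1, log2 fold change 3.44, SE 0.98, edgeR adjusted p = 0.0249) rose, as did the glycolytic enzymes Ldha (2.82, SE 0.77, edgeR adjusted p = 0.0218) and Eno1 (4.40, SE 1.27, edgeR adjusted p = 0.0252). Clec4n, Cxcl16, Gsn, Tpm4 and Gpr171 had no UMI in Pre-MET lung either, and their bounds were 2.65-fold to 5.66-fold. Of the called genes named for this comparison, Cd74, Ly6a, Il1r2, Rps27 and Gm13341 were called in all 7 fits that left out 1 sum, and the others in 1 to 5. Of the genes that fell, Rps27, which fell by 4.44 on the log2 scale, and Gm13341 were also lower in the B cells of the higher batches, as were 10 others of the 29. Of all 1523 genes tested, 39 (2.56%) were lower in those B cells. Of the genes that rose, 3 were also higher there, among them Cd74, by which the batches were split. Of all genes tested, 16 (1.05%) were higher there. Upb1 and Rilpl2 had their Pre-MET UMIs from 1 sum each. S100a8, a neutrophil protein, was at 244 CPM on average in Pre-MET lung and 5.70 CPM in the primary tumor, and the neutrophil markers summed to 0 to 712 CPM and 8.50 to 19.1 CPM, with Cxcr2 at 0 in both. Macrophage markers summed to 305 to 1441 CPM (median 359) in Pre-MET lung, where C1qa, C1qb, C1qc and Mrc1 were at 0, and to 784 to 2573 CPM (median 1251) in the primary tumor. Migratory DC markers summed to 102 to 443 CPM (median 240, with Ccr7, Fscn1 and Ccl22 at 0) and 344 to 1289 CPM (median 672), and B cell markers to 479 to 1424 CPM (median 1108, with Cd79a and Ms4a1 at 0) and 324 to 612 CPM (median 445). The mitochondrial share of UMIs, which can reflect RNA quality, was 2.21% to 3.96% in Pre-MET lung and 1.24% to 1.72% in the primary tumor, without overlap. The part of these in the result was not tested.

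Primary tumor was also set against the metastasis core, which compares tumor tissue of the gland with that of the lung. No gene was called by edgeR (0%) and 130 had an unadjusted p below 0.05 (8.54%), while DESeq2 called 9. Cd74 came nearest, with 17900 CPM ± 1326 (SD, n = 4) in the primary tumor and 3541 CPM ± 4782 (SD, n = 7) in the core (2.63, SE 0.60, edgeR adjusted p = 0.0553), and the 1 core from a higher batch, that of mouse 36, was at 14335 CPM. Ccl17, a chemokine of activated DC, was at 0 in every primary tumor and at 146 CPM on average in the core (edgeR adjusted p = 0.154). Ly6a and Ifitm1 were present in all sums of both sites. Cd209a was at 748 to 1185 CPM in the primary tumor and 0 to 1119 CPM in the core (1.12, SE 0.68, edgeR adjusted p = 0.683). Of the cores 5 were below every primary tumor, and those of mice 28 and 36 lay among the tumors.

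Pre-MET lung against control lung asks whether cDC2 in the lung change before metastases form. No gene was called by edgeR (0%), 250 had an unadjusted p below 0.05 (16.4%), and DESeq2 called Cox5a and Srp14. Each group had 3 sums of 5 to 7 cells. Neither held a UMI of Ly6a, Cxcl10 or Clec4n. Cd209a was at 3127, 1648 and 1206 CPM in the control lungs of mice 1, 2 and 3 and at 599, 407 and 887 CPM in the Pre-MET lungs of mice 8, 9 and 10, without overlap (-1.80, SE 0.99, edgeR adjusted p = 0.349). The chemokine Ccl4 was at 789 CPM on average in control lung and at 0 in Pre-MET lung (edgeR adjusted p = 0.217).

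How the genes were spread over single cells was described after thinning each cell to 500 UMIs, which left out no cell. The shares pool cells of several mice, and 66 of the 137 core cells came from mouse 28, so their exact 95% intervals cover counting error only. A UMI of Ly6a was found in 62.8% of core cDC2 (54.1 to 70.9), 46.4% of metastasis cDC2 (37.0 to 56.1) and 24.7% of primary tumor cDC2 (16.4 to 34.8). In relapse-free lung the share was 11.1%, in distal normal tissue 6.82%, and 0 of 18 cells in control and in Pre-MET lung, where the exact interval reaches 18.5%. In the margin it was 21.4%. Ifitm1 was found in 60.6% of cDC2 in the core, 45.2% in the primary tumor, 42.0% in metastasis, 14.3% in the margin, 5.56% in Pre-MET lung, 3.17% in relapse-free lung, 2.27% in distal normal tissue and 0 of 18 cells in control lung. Over all statuses, Ly6a was found in 34.9% of cDC2 and 5.91% of cDC1, and Ifitm1 in 35.7% and 6.69%. Without thinning these were 47.1% and 11.0% for Ly6a and 43.3% and 14.6% for Ifitm1. The statuses weighed differently in cDC2 and cDC1, since the core gave 137 of 499 cDC2 and 33 of 254 cDC1. The cDC1 shares also differed by status, with 21.2% for Ly6a and 24.2% for Ifitm1 in the core, against 3.03% and 0% (0 of 66 cells, exact interval up to 5.44%) in relapse-free lung.

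Cd209a was found in 44.4% of cDC2 in control lung, 33.3% in relapse-free lung, 27.3% in distal normal tissue, 26.9% in the primary tumor, 17.0% in metastasis, 16.8% in the core, 7.14% in the margin and 5.56% in Pre-MET lung. The order was thus not the reverse of that of Ly6a, since Pre-MET lung was low in both. The share of cDC1 with Cd209a over all statuses was 7.48%. At full depth, 12 of the 112 metastasis cells had UMIs of both Cd209a and Ly6a, 16 of Cd209a only, 49 of Ly6a only and 35 of neither. In the core the same counts were 21, 10, 81 and 25 of 137 cells, and in the primary tumor 22, 19, 27 and 25 of 93. Cells with both genes were thus present at each site. In other cells of the metastasis, pooled levels of Ifitm1 were 950 CPM in cDC1, 524 CPM in MHC-II monocytes and 23.0 CPM in B cells, against 2964 CPM in cDC2. Neutrophils of the metastasis held more Ifitm1 than cDC2 did, as given above. Pooled levels of Ly6a in cDC1, MHC-II monocytes and B cells were 137, 880 and 1146 CPM, against 1780 CPM in cDC2.

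**Figure D4:**
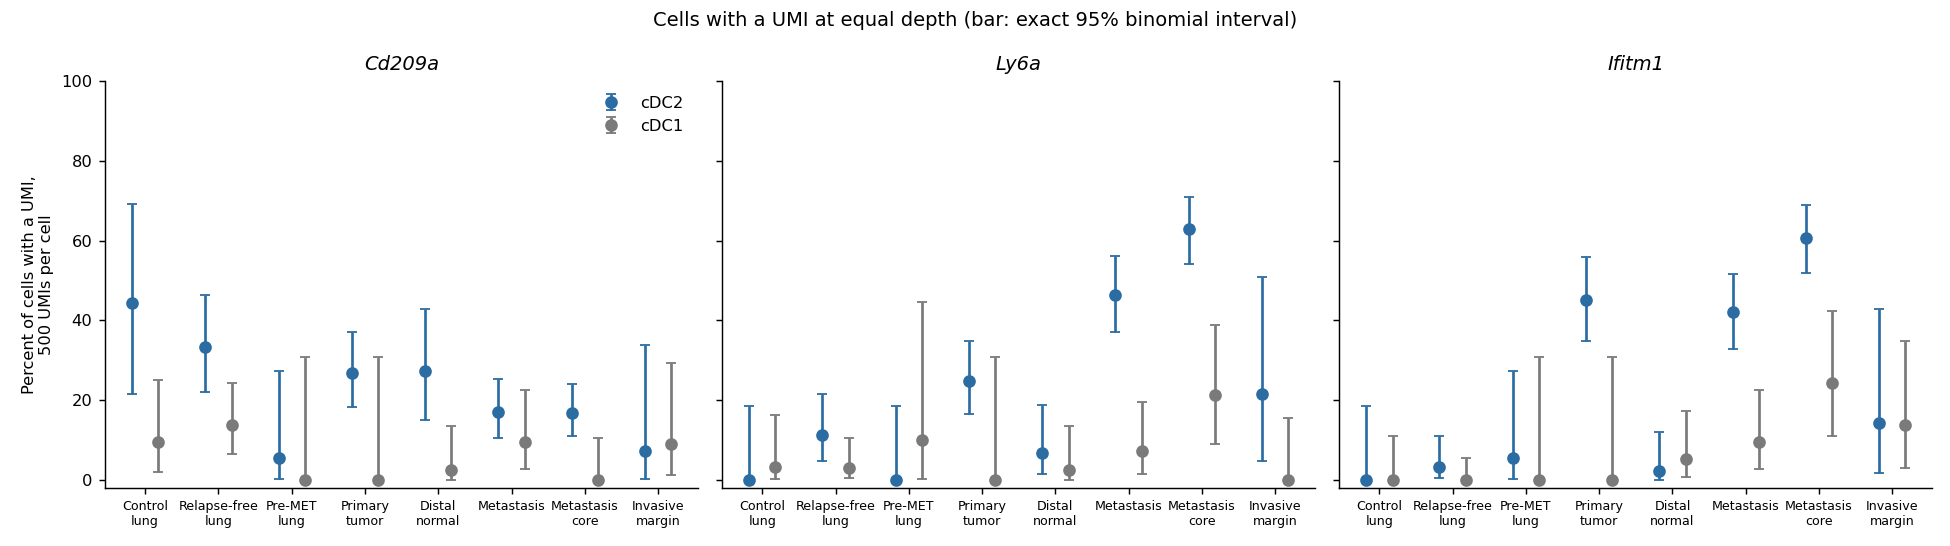
Percent of cells with at least 1 UMI of Cd209a, Ly6a or Ifitm1 after thinning to 500 UMIs per cell, in cDC2 (blue) and cDC1 (gray) by tissue status, with exact 95% binomial intervals. Cells of several mice are pooled. Ly6a and Ifitm1 were found in 62.8% and 60.6% of core cDC2, and Cd209a in 16.8%.

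The frequency of cDC2 was compared over samples with 2-sided permutation tests of 7 comparisons per measure. Of the immune cells, cDC2 made up 0.876% ± 0.133 (SD, n = 3) in control lung, 1.28% ± 0.24 (SD, n = 3) in Pre-MET lung and 6.11% ± 1.83 (SD, n = 4) in the primary tumor. The share was 1.45% ± 0.71 (SD, n = 6) in relapse-free lung, 1.74% ± 1.41 (SD, n = 14) in distal normal tissue and 2.94% ± 2.16 (SD, n = 13) in metastasis. The core had 3.76% ± 4.53 (SD, n = 13), with those of mice 23 and 28 far above the rest at 12.9% or more, and the invasive margin 0.990% ± 0.863 (SD, n = 7).

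Core samples exceeded those of the margin by 2.77 percentage points (exact permutation p = 0.0486, adjusted p = 0.151), and 10 of 13 cores were above the mean margin. This was the only comparison of this measure under an unadjusted 0.05, and within mouse it did not pass (6 pairs, 4 higher, exact permutation p = 0.125). The primary tumor exceeded Pre-MET lung by 4.83 points without overlap and in 3 of 3 mice (exact permutation p = 0.0571 unpaired, p = 0.25 paired). The test doubles the p of the smaller tail. Each of these values is then the smallest that so few samples allow, so neither could pass 0.05. Metastasis exceeded relapse-free lung by 1.49 points (exact permutation p = 0.108) and distal normal tissue by 1.20 points (permutation p = 0.0987, and exact permutation p = 0.0571 within 13 mice, of which 8 were higher in metastasis). Pre-MET lung exceeded control lung by 0.408 points without overlap (exact permutation p = 0.100, the smallest this design allows). Primary tumor against core (2.35 points, exact permutation p = 0.334) and core against metastasis (0.822 points, permutation p = 0.558) did not pass.

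Among dendritic cells, cDC2 were 61.2% ± 16.5 (SD, n = 10) in metastasis and 45.8% ± 14.9 (SD, n = 9) in distal normal tissue, where samples of at least 5 DC were used. The difference of 15.4 points had an exact permutation p of 0.0488 (adjusted p = 0.342), and 6 of 7 mice with both tissues were higher in metastasis (exact permutation p = 0.141). The mean share was lowest in control lung, whose samples were at 25.0%, 23.1% and 41.2%. The lowest single samples were in distal normal tissue (14.3%) and the margin (22.2%). Of the other 6 comparisons of this measure none passed an unadjusted 0.05, and the smallest p was 0.200 (exact permutation, Pre-MET against control lung).

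**Figure D5:**
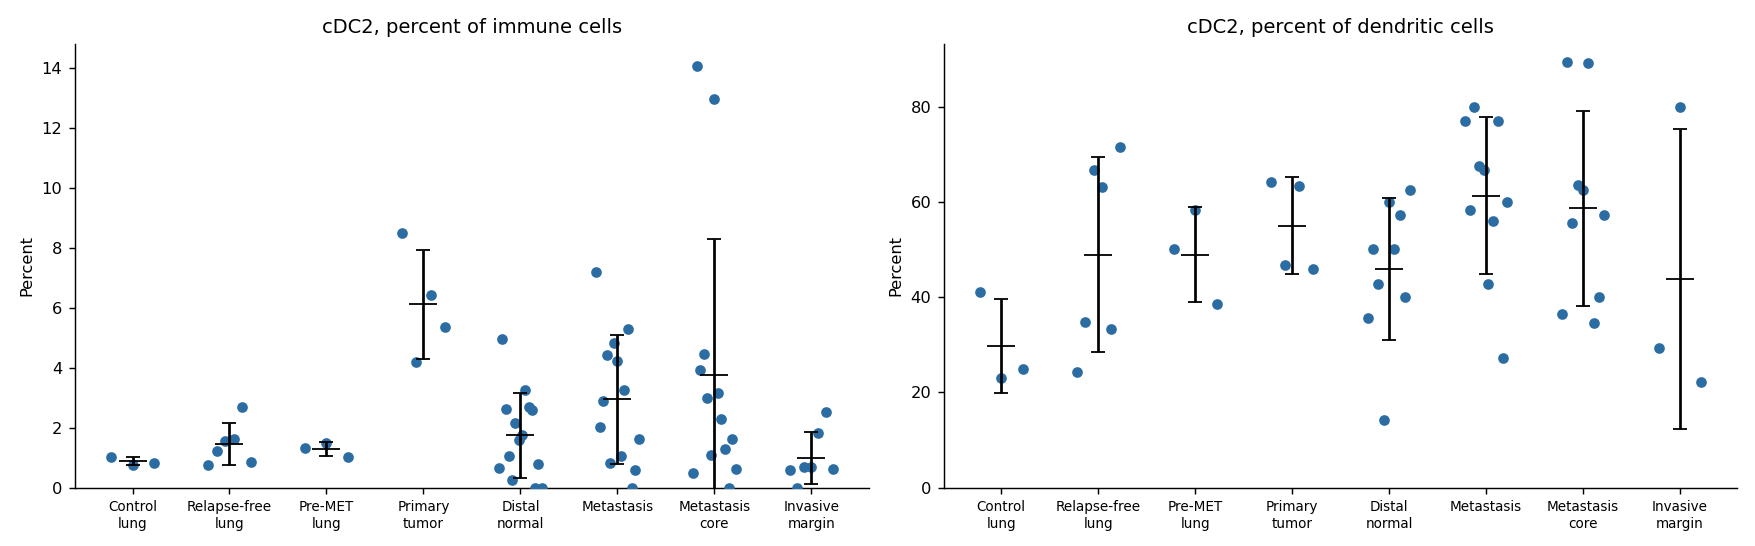
Percent of immune cells (left) and of dendritic cells (right) annotated as cDC2 by tissue status. Each point is 1 sample, and the bars give the mean and SD. Primary tumors lie at 4.18% to 8.47% of immune cells, above the 3 Pre-MET lungs, and 2 metastasis cores reach 12.9% or more.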

How the data were processed

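Immune and other cells of lung and tumor were sequenced in 384-well plates. Per the labels and the study's methods, the authors demultiplexed with bcl2fastq 2.15.0.4, mapped reads to mm10 with HISAT (multi-mapped reads excluded), counted UMIs per gene and well over UCSC exons, discarded cells under 500 UMIs and annotated cells with MetaCell. The deposited counts are raw UMI counts per well, and the annotation is the deposited cell table.

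Counts of cDC2 were joined to the annotation by well and summed per mouse and status (at least 5 cells). All statuses entered 1 fit of edgeR's quasi-likelihood test (edgeR 4.0.16, R 4.3.3, TMM, filterByExpr) with Benjamini-Hochberg adjustment over 1523 genes and a threshold of 0.05. DESeq2 1.42.0 and other settings were alternatives. Frequencies were compared with permutation tests (scipy 1.17.1, 100000 resamples where not exact), with samples as replicates. CPM were the UMIs of a gene in a sum, scaled to the total of that sum. For a gene with no UMI in 1 group, the fold is given against a floor of 3 counts over that group. The edgeR p-values rest on the spread between sums of a status, taken over all statuses in 1 fit with no block for the mouse. That spread holds differences between mice, between batches and from small numbers of cells. Depth ran from 3547 to 234671 UMIs per sum.

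Named genes were Cd209a, H2-Ab1 and Cd74, the 8 called genes of largest rise and of largest fall with a mean of at least 100 CPM in the higher status, and up to 5 called genes (otherwise that of smallest p) of each of 10 function lists. Cstb, Ifitm2, Ifitm3, Rtp4, Gm7676 and Tspo against relapse-free lung, and Cox5a and Srp14, were named after their values were seen. The members and lists were chosen with earlier results of these data known. Scripts were tested on simulated counts. Statuses of one mouse share the animal, so the mouse pairs them. The correlation of their deviations was -0.022 to 0.003 in mice 8, 9 and 10 (primary tumor and Pre-MET lung) and -0.002 to 0.219 in 5 mice with core and metastasis sums.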

Additional observations from a re-analysis of the deposited data

Results flagged for a closer look

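Dixon's test for a value far from the rest was applied to 57 combinations of gene and status with 4 to 10 sums, and 14 stood out. Where all sums but 1 are at 0 the test flags any value. The usual rate of about 1 in 20 by chance thus does not apply, and the number of flags is a description only. Cd74 stood out in the relapse-free lung of mouse 35 (12412 CPM), the distal normal tissue of mouse 36 (8053 CPM), the metastasis of mouse 33 (38656 CPM) and the core of mouse 36 (14335 CPM), and all 4 sums came from the sequencing batches with higher Cd74 in B cells. Ifitm2 stood out in the metastasis of mouse 33 (15724 CPM) and the core of mouse 26 (5831 CPM), and Isg15 in the metastasis of mouse 33 (1030 CPM). Among sums that were otherwise near 0, those of Ifitm1 (345 CPM), Clec4n (148 CPM) and Isg15 (49.3 CPM) in the relapse-free lung of mouse 11 stood apart. The same held for Isg20 in the relapse-free lung of mouse 6 (225 CPM) and the distal normal tissue of mouse 23 (140 CPM), and for Cxcl10 in the relapse-free lung of mouse 18 (34.7 CPM) and the distal normal tissue of mouse 36 (33.8 CPM). Each of the last 2 values was 1 UMI.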

How the results depend on the processing

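No fit of expression paired by mouse was run for metastasis against distal normal tissue, because only mouse 23 had sums of both. Leaving out sums of groups above 5 and the restriction to 8 batches were chosen after seeing the data. The causes of the changes below were not tested, and depth was lowest in a core sum, at 3547 UMIs.

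The totals here count every gene called in a setting, whether or not the main fit called it. The 24 calls for metastasis against relapse-free lung became 4 with no filter and 8 with cells of at least 1000 UMIs. They became 6 with only these statuses in the fit, 2 with the batch as a covariate and 6 in the 8 lower batches. With 1 sum left out they became 7 to 36 (7 without the metastasis of mouse 33, 9 without the relapse-free lung of mouse 7, 10 without the metastasis of mouse 28). The 15 for distal normal tissue became 2, 5 and 4 (only these statuses, batch covariate, 8 batches) and 3 to 18 with 1 sum left out (3 without the metastasis of mouse 32, 4 without that of mouse 26, 28 or 37). The 81 for primary tumor against Pre-MET lung became 286 with only these statuses, 55 with the replicate block and 26 to 62 with 1 sum left out (27, 26 and 50 without the Pre-MET lung of mice 8, 9 and 10). The 0 for primary tumor against core became 9 (DESeq2), 10 (no filter), 4 (at least 10 cells), 7 (only these statuses) and 0 to 3. The 0 for core against metastasis became 1 with DESeq2, RLE, no filter or the batch covariate and 0 to 2 with 1 sum left out, and remained 0 with the replicate block. The 0 for Pre-MET against control lung became 2 (DESeq2) and 0 with 1 sum left out.

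Core minus metastasis in percent of immune cells was -0.1135 with cells of at least 1000 UMIs and -0.03455 to 1.177 with 1 sample left out. Core minus margin was 2.04 (at least 1000 UMIs, exact permutation p = 0.289), 1.087 (log2 of percent, exact permutation p = 0.072) and 2.87 with the replicate block, and 1.916 to 3.086 with 1 left out. Metastasis minus distal normal tissue was 0.8424 to 1.444 with 1 left out. In percent of dendritic cells, primary tumor minus core was 1.594 (at least 1000 UMIs), 1.588 (log2 ratio of cDC2 to cDC1) and -6.69 to 0.1626 with 1 left out. Core minus metastasis was 0.08428 (log2 ratio), 1.219 (replicate block) and -6.384 to 0.4666. Metastasis minus distal normal tissue was 17.84 (at least 1000 UMIs), 12.67 (at least 10 dendritic cells), 19.56 (replicate block) and 11.47 to 19.18. Core minus margin was 3.978 to 32.87.

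Signs turned for genes that were mostly not called. For primary tumor against core these were Junb (-0.127, batch covariate) and, in cells of at least 1000 UMIs, Cd209a (-0.042) and H2-Ab1 (-0.107). For primary tumor against Pre-MET lung they were Ccr2 (0.464 with no filter, -0.91 to 0.081 with 1 sum left out), Upb1 (-5.816 to 0.577, the latter without Pre-MET mouse 9) and Rilpl2 (-5.638 to 0.989, the latter without Pre-MET mouse 8), the last 2 of them called. For metastasis against relapse-free lung they were Cd74 (-0.794) and H2-Ab1 (-0.032) in the 8 batches, H2-Ab1 (-0.044) and Ccr2 (-0.335) with at least 10 cells, Ccr2 in cells of at least 1000 UMIs (-0.395) and with 1 sum left out (-0.189 to 0.441), and the called Gm22761 (0.063, batch covariate). For core against metastasis they were Cd40 (0.598), Clec7a (0.348), Cxcl9 (-0.754) and H2-Ab1 (0.617) in cells of at least 1000 UMIs, Cxcl9 (-0.342), Cd209a (-0.025) and H2-Ab1 (0.092) with at least 10 cells, and Cd209a in the 8 batches (-0.232) or with 1 sum left out (-0.346 to 0.616). For distal normal tissue they were Ccr2 (0.026) and Tuba1b (-0.363) in the 8 batches and the called Arfgef1 (-4.795 to 2.929, the latter without distal normal 23). For Pre-MET against control lung they were, with 1 sum left out, Ccr2 (-0.153 to 1.203), Nr4a2 (-5.928 to 0.000) and H2-Ab1 (-1.241 to 0.152).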
